A study of Mus musculus with 22 samples.

Results

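The nuclear receptor genes are the rows of the testis RNA-seq count table whose symbols follow the naming pattern of the nuclear receptor superfamily: symbols that begin with Nr and a family number, the PPAR, estrogen, estrogen-related, thyroid hormone, ROR, vitamin D and progesterone receptor genes, with *Nr5a1* and *Nr0b1* set apart. The pattern found 39 of 17931 gene symbols. Of these, 38 encode receptors, and the remaining row, *Nr2c2ap*, encodes a protein that binds the receptor TR4 and is no receptor itself. The pattern reads symbols alone, but it was set with earlier results of these data known.

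RNA was sequenced from whole testes of mice aged 7 months, in 3 libraries from wild-type (WT) males that were proven breeders and 3 libraries from age-matched littermates lacking MLX (MLX KO), numbered 1 to 3 in each genotype. MLX is a glucose-responsive transcription factor that binds DNA as a dimer with MondoA, ChREBP or some MXD proteins. The knockout is constitutive and not limited to a cell type of the testis. Its allele, made in 129S4 embryonic stem cells and deleted with a Meox2-Cre line that was then crossed out, lacks the exons for the DNA-binding and dimerization domain and keeps the exons on either side, and the labels give no treatment. The question put to the nuclear receptor genes was how their RNA levels differed between the genotypes.

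Nuclear receptors are transcription factors with a zinc finger domain that reads short DNA elements and a ligand-binding domain that, in many members, is occupied by a steroid, thyroid hormone, vitamin, fatty acid, oxysterol or bile acid. Ligand exchanges corepressors for coactivators on the receptor, and for orphan members no ligand is needed or known. In the testis, Sertoli and Leydig cells are known targets of steroid and thyroid hormones, and *Nr6a1* encodes a receptor named for its expression in germ cells.

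The libraries held 16674678 to 19742726 counts, and TMM factors, which correct for RNA composition, were 0.943 to 0.961 in WT and 1.02 to 1.07 in MLX KO. *Mlx* itself had 96 to 128 counts in the WT libraries and 94 to 109 in the KO libraries, an LFC of -0.18 (SE 0.14, adjusted p = 0.326). Since the count covers the whole gene, including the exons that were kept, it does not check the labels, and each direction below rests on the genotype that the sample labels give. Germ cell markers were abundant in every library, as the labelled tissue requires. Markers of several cell types moved with genotype, in CPM (counts scaled to a common library size) summed over each list. All 12 Sertoli markers were higher in MLX KO (1256 to 1310 in WT, 1918 to 2353 in KO), as were all 8 Leydig markers (870 to 898, then 1861 to 2435) and all 10 tested macrophage markers (87.1 to 92.6, then 189 to 193). All 13 elongating spermatid markers (29301 to 30344, then 18014 to 21833), all 9 tested round spermatid markers (2302 to 2358, then 1902 to 2054) and 8 of 11 spermatocyte markers (1874 to 1928, then 1645 to 1719) were lower. Spermatogonial markers (2 higher and 1 lower of 10 tested; 173 to 180, then 187 to 201), endothelial markers (2 higher of 9; 49.4 to 60.0, then 67.2 to 72.3), peritubular myoid markers (4 higher and 1 lower of 6; 310 to 369, then 309 to 325), adipocyte markers (1 higher and 1 lower of 5; 8.52 to 12.7, then 8.20 to 10.7) and lymphocyte markers (0 of 2; 2.90 to 5.24, then 2.66 to 5.08) moved less evenly. Epididymal markers summed to 1.91 to 2.93 and 1.91 to 2.32 CPM, with *Lcn5*, *Lcn9*, *Spag11b* and *Adam7* at 3 or fewer counts in every library. No marker was at 0 in all libraries. The part of these shifts in the differences below was not tested, and in whole tissue a smaller number of cells of a type and less RNA per cell cannot be told apart.

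Of the 39 nuclear receptor genes, 29 passed the filter on low counts and were tested. The test called 15 of them, or 51.7%, at an adjusted p under 0.05 (quasi-likelihood test of edgeR, Benjamini-Hochberg adjusted over all 14640 genes tested), beside 45.4% of all genes tested. With the littermate number as a block 15 were called too, beside 46.1% of all genes. More were higher than lower in MLX KO testes: 13 genes were higher (44.8%, beside 24.8% of all genes tested), among them *Thra*, *Thrb*, *Ppara*, *Ppard*, *Vdr*, *Nr1d2*, *Nr1h4*, *Nr2f2*, *Nr2f6*, *Esr1*, *Nr3c1* and *Esrrb*. Only *Nr6a1* and *Rora* were called lower (6.90%, beside 20.6% of all genes tested). The counts of every list below are to be read beside these shares of all genes. The median LFC of the tested genes was 0.30, and that of all genes tested was 0.03. *Nr1h4* reached 10 counts in KO libraries only, so that it could be tested only because it was high there. Without it 12 of 28 genes were higher, or 42.9%.

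Each of the 15 called genes differed in the same direction in 3 of 3 littermate pairs, which must be so where the genotypes do not overlap. The CPM of the genotypes did not overlap in 17 of the 29 tested genes, or 58.6%, beside 56.2% of all genes tested. The 17 are the 15 called genes with *Nr1h3* and *Nr4a2*. The sizes differed widely: the LFC passed 1 for 4 genes, *Nr1h4*, *Thrb* and *Thra* among them, whereas *Nr1d2* and *Esrrb* differed by about as much as the lower *Nr6a1*. Among the 13 higher genes, the lowest KO library was KO1 for 8, KO2 for 5 and KO3 for 0. The same count was not made over all genes called higher. Over all genes KO1 stood apart from KO2 and KO3 (chi-square of 8.26 and 8.25 for each degree of freedom) more than these from each other (2.73). KO1 was also the KO library with the smallest Sertoli and Leydig marker sums and KO2 the one with the largest, and a link was not tested.

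**Figure D1:**
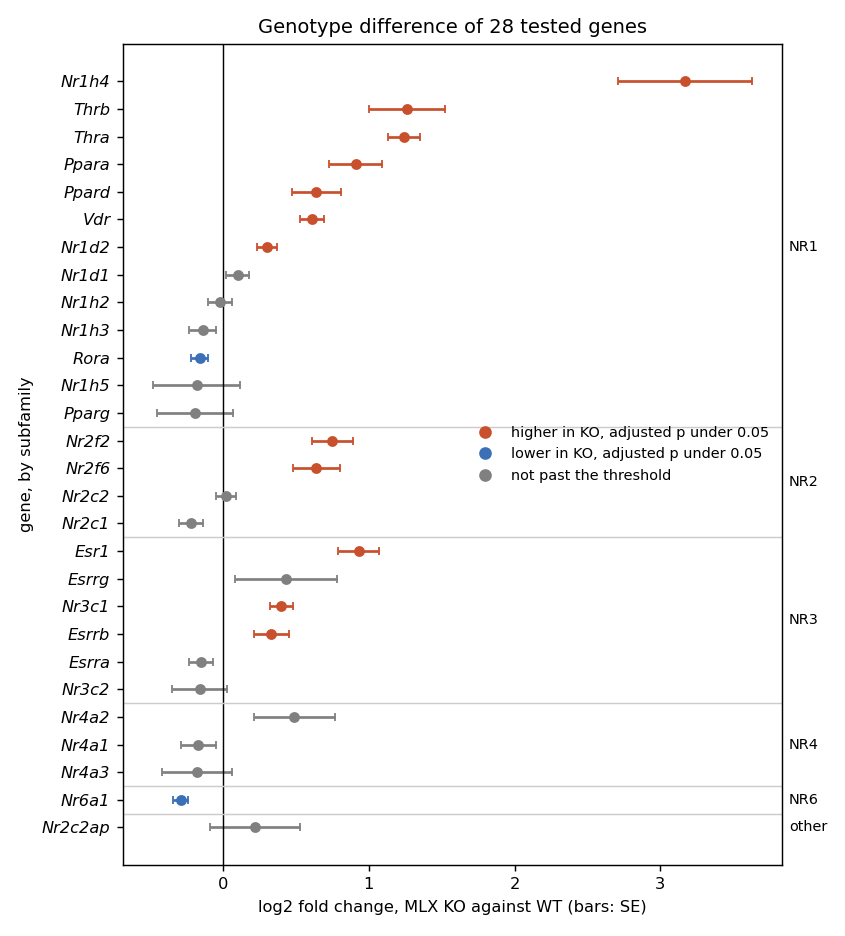
Log2 fold change of MLX KO against WT testes for 28 tested genes, with bars of 1 standard error, grouped by subfamily (3 libraries per genotype). The 12 genes drawn as higher lie between 0.30 (*Nr1d2*) and 3.17 (*Nr1h4*), and the 2 drawn as lower are *Nr6a1* at -0.29 and *Rora* at -0.16.

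Levels were compared between genes per kilobase of exon. In WT testes *Nr6a1* stood highest at 26.2 ± 0.832 CPM per kb (SD, n = 3), above *Nr1h2* at 13.9 ± 1.33 and *Nr4a1* at 13.7 ± 0.389, which did not differ beyond their spread. *Nr2c1* followed at 10.4 ± 0.587, *Nr1d1* at 8.70 ± 0.469 and *Nr1h3* at 6.26 ± 0.138. Next came *Nr1d2* at 5.02 ± 0.254 and *Esrra* at 4.89 ± 0.345, whose values overlap, and then *Rora* and *Nr2c2* at 3.70 ± 0.121 and 3.65 ± 0.329. Every receptor gene called higher except *Nr1d2* stood at or below 2.09 CPM per kb in WT, the level of *Vdr*. *Nr6a1* alone made up 39.8 to 41.7% of all counts on the nuclear receptor genes in WT and 32.8 to 36.5% in MLX KO libraries. All 39 rows together took 0.0660 to 0.0666% of counts in the WT libraries and 0.0687 to 0.0719% in MLX KO.

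**Figure D2:**
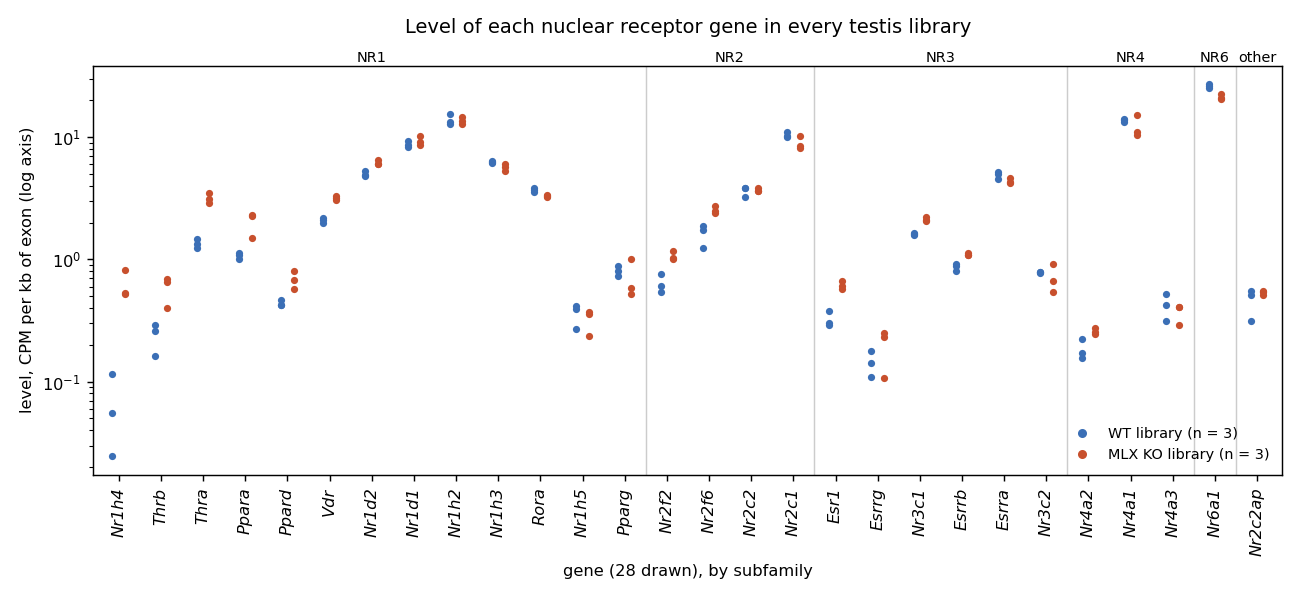
Level of 28 tested genes in CPM per kb of exon (log axis) in every library, WT and MLX KO side by side, by subfamily. *Nr6a1* is highest in both genotypes, at a mean of 26.2 in WT and 21.4 in KO, and *Nr1h4* moves from a mean of 0.0647 in WT to 0.620 in KO.

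The start sites of the genes were searched for 2 short DNA words, since many nuclear receptors bind AGGTCA (or TGACCT on the other strand) and MLX dimers bind E-boxes, whose commonest core is CACGTG. Windows from 250 bases before to 50 bases after annotated starts were given by RefSeq (GRCm38.p6) for 36 of the 39 genes, in 49 windows. *Nr3c1* and *Thra* are among those with no window in it. AGGTCA on either strand lay in 7 windows (14.3%) of 6 genes, beside 16.3% of all 32851 windows. CACGTG, which reads the same on both strands, lay in 4 windows (8.16%), beside 7.15% of all. Of the called genes, AGGTCA lay at *Nr1d2*, *Nr1h4*, *Thrb* and *Nr6a1*, and CACGTG only at a further start of *Thrb*. The stretches around these matches are shown because they belong to called genes, 5′ to 3′ on the strand of the gene, with the match in capitals. They are the reference genome's bases, not those of the 129S4 background, and a match is a description of letters, not a bound site.
Nr1d2, chr14:18239151-18239210, minus strand: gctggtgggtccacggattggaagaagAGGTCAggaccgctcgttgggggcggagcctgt
Nr1h4, chr10:89506840-89506899, minus strand: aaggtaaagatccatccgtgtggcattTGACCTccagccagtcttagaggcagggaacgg
Thrb, chr14:17660749-17660808, plus strand: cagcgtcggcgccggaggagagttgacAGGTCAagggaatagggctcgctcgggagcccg
Thrb, chr14:17981424-17981483, plus strand: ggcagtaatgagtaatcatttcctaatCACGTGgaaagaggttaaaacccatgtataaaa
Nr6a1, chr2:38784574-38784633, minus strand: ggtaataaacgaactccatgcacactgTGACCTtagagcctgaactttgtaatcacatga
Nr6a1, chr2:38784528-38784587, minus strand: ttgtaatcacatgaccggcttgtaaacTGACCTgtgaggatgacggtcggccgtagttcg
The matches begin 77 bases before an annotated start at *Nr1d2*, 214 at *Nr1h4*, 184 and 193 at the starts of *Thrb*, and 91 and 45 at *Nr6a1*. At *Nr1h4*, *Thrb* and *Nr6a1* these starts lie inside the gene span. The window at the outer start of *Nr6a1* (chr2:38926412-38926711) held neither word. The other windows of genes called higher or lower held neither word.

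The thyroid hormone receptors rose together. *Thra*, on chromosome 11 from 98740776 to 98769006, encodes the receptor through which thyroid hormone is known to end Sertoli cell proliferation, and it had 116, 90 and 120 counts in WT1 to WT3 and 278, 242 and 305 in KO1 to KO3. All KO libraries lay well above all WT libraries, at an LFC of 1.24 (SE 0.11, adjusted p = 2.17e-05). *Thrb* (chr14:17659225-18040097), the receptor of the pituitary and liver axis, had 41, 19 and 34 counts in the WT libraries and 57, 92 and 91 in KO. Its LFC was 1.26 (SE 0.26, adjusted p = 0.00274), with KO1 nearest to WT. Around them, 4 of 8 tested genes of thyroid hormone handling and response were higher and 0 lower (50.0% called, beside 45.4% of all genes, median LFC 0.23). The higher include *Thrsp*, a hormone-responsive gene of lipid synthesis (LFC 1.47, SE 0.39), and *Me1*, malic enzyme (0.24, SE 0.05). *Dio2*, which activates the hormone, stood at 5.70 CPM in WT and 4.62 in KO (adjusted p = 0.115). *Thra* lies 2.32 Mb from *Mlx*, and 5.70% of its exon length overlaps *Nr1d1* on the opposite strand, whose LFC was 0.10.

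The PPAR genes split. *Ppara* (chr15:85734910-85806851), the fatty acid sensor that drives mitochondrial and peroxisomal fatty acid oxidation, had 79, 68 and 68 counts in the WT libraries and 112, 160 and 163 in KO, and *Ppard* (chr17:28232754-28301469), a widely expressed relative, had 60, 50 and 62 in WT and 83, 92 and 114 in KO. Both were higher, *Ppara* at an LFC of 0.91 (SE 0.18, adjusted p = 0.00165) and *Ppard* at 0.64 (SE 0.17, adjusted p = 0.00928), again with KO1 lowest of the KO libraries. With DESeq2 and the littermate number as a block, *Ppard* did not pass (adjusted p = 0.111). *Pparg*, known for adipocyte differentiation, was at 2.37 ± 0.232 CPM in WT and 2.08 ± 0.774 in KO (LFC -0.19, adjusted p = 0.580), with overlapping values. Of 22 tested PPAR target genes, 13 were higher and 2 lower (68.2% called, beside 45.4% of all genes), with a median LFC of 0.74. Among those with the lowest adjusted p were *Fabp3*, a fatty acid carrier (58.7 CPM in WT and 165 in KO, LFC 1.49, SE 0.11), and *Cpt1a*, which admits fatty acids to mitochondria (0.90, SE 0.10). The 2 lower targets were *Cpt1b* (LFC -0.27) and *Hadha* (-0.14). The lower count was 0 without KO2, without KO3 and with library size alone, and 1 without WT1, WT2 or WT3 and with the littermate block in either tool.

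Of the circadian clock receptors described here, *Nr1d2* was called higher and *Nr1d1* was not called. The lower call of *Rora* did not hold in most alternative analyses. REV-ERB proteins, from *Nr1d1* and *Nr1d2*, repress clock genes at elements that ROR proteins activate. *Nr1d2* (chr14:18204056-18239106) had 545, 411 and 473 counts in the WT libraries and 635, 591 and 661 in KO, an LFC of 0.30 (SE 0.07, adjusted p = 0.00454) with all KO values above all WT values in CPM (26.1 to 28.7 in WT, 32.7 to 35.0 in KO). *Nr1d1* stood at 26.8 ± 1.44 CPM in WT and 28.7 ± 2.67 in KO, with overlapping values (LFC 0.10, adjusted p = 0.345). The difference between these LFCs was not tested. *Nr1d2* lost its call with DESeq2 and the littermate block (adjusted p = 0.0781).

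*Rora* (chr9:68653404-69388246), an activator of clock genes, had 942, 766 and 826 counts in the WT libraries and 820, 777 and 833 in KO, which after TMM scaling is 46.6 to 49.7 CPM in WT and 42.3 to 44.1 in KO. Its small decrease (LFC -0.16, SE 0.06, adjusted p = 0.0314) passed in 6 of 14 alternative analyses and was -0.02 (adjusted p = 0.761) with library size alone. Leaving out WT1, WT2, KO1, KO2 or KO3 also ended the call (adjusted p from 0.0535 to 0.110). *Rorb* had 0 to 5 counts and was not tested. Of 15 clock genes, 9 were higher and 1 lower (median LFC 0.42): *Bhlhe40* at 1.63 (SE 0.31), *Hlf* at 0.91 (SE 0.18), *Dbp* at 0.65 (SE 0.12), *Clock* at 0.46 (SE 0.07) and *Cry2* at 0.40 (SE 0.07) were among the higher, and *Per1* at -0.20 was lower. The higher count fell to 5 without KO3 and in DESeq2 with the block, and the lower one to 0 without WT1, WT2 or WT3 and with library size alone. *Arntl*, the classic target repressed by REV-ERB, stood at 6.40 CPM in WT and 6.85 in KO (adjusted p = 0.567). The time of day at which the testes were taken is not given in the sources used here.

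The oxysterol receptors did not differ detectably. *Nr1h2* (LXRβ) stood at 46.5 ± 4.46 CPM in WT and 45.9 ± 3.08 in KO (LFC -0.02, SE 0.08, adjusted p = 0.846), and *Nr1h3* (LXRα), the other cholesterol-efflux regulator, at 15.7 ± 0.347 and 14.3 ± 0.913 (LFC -0.14, adjusted p = 0.209). In *Nr1h3*, the lowest WT library was above the highest KO library, without passing the test. With library size alone *Nr1h2* turned to an LFC of 0.12. Their target genes moved all the same: 10 of 15 tested were higher and 1 lower (median LFC 0.63), with *Apoc1* at 2.48 (SE 0.11), *Abca1*, the cholesterol exporter, at 1.65 (SE 0.12), *Apoe* at 1.35 (SE 0.13) and *Scd2* at 0.95 (SE 0.08). The lower one was *Lpcat3* (LFC -0.29). *Apoe*, *Apoc1* and *Abca1* are genes that macrophages, among other cells, are known to express, and the part of macrophages in these differences was not tested.

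*Nr1h4* (chr10:89454234-89533645) encodes FXR, the bile acid receptor, and had the largest LFC of all called receptor genes from the lowest counts. It had 5, 2 and 1 counts in the WT libraries and 23, 34 and 23 in KO, so that all KO libraries lay above all WT libraries. The fitted LFC was 3.17 (SE 0.46, adjusted p = 3.04e-04). Over the groups, 8 counts in the WT libraries and 80 in KO gave a ratio of 9.30, with an exact 95% interval from 4.50 to 22.3 that covers counting error only. Neither the test nor the interval allows for the entry of *Nr1h4* through its KO counts alone. Even in KO the level of *Nr1h4*, 0.620 CPM per kb, was below that of most receptor genes tested. Of the bile acid genes, 8 were under the count filter and 3 were tested: *Cyp27a1*, an oxysterol and bile acid enzyme, was higher (LFC 1.04, SE 0.16), *Abcb11*, the bile salt exporter, was lower (-0.70, SE 0.19) but was not called without WT1 or in DESeq2 with the block, and *Slc10a2* did not pass (0.22, adjusted p = 0.584). *Nr1h5*, a lanosterol receptor related to FXR, was at 1.02 ± 0.224 and 0.909 ± 0.208 CPM (LFC -0.18, adjusted p = 0.659).

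*Vdr* (chr15:97854427-97908296), the vitamin D receptor, had 233, 177 and 210 counts in the WT libraries and 338, 325 and 354 in KO. The KO libraries were close to each other and all above WT (LFC 0.61, SE 0.08, adjusted p = 2.42e-04). Its fellow genes moved little: of 5 tested genes of vitamin D handling and response 1 was higher and 0 lower (median LFC 0.08). The higher one, *Spp1*, is also a general matrix and macrophage gene (LFC 1.78, SE 0.27), and *Cyp24a1*, the classic induced target, stood at 0.857 and 0.743 CPM (adjusted p = 0.688). The xenobiotic receptors were scarcely detected. *Nr1i2* (PXR) had 5 to 7 counts in the WT libraries and 8 to 16 in KO, and *Nr1i3* (CAR), whose exons overlap *Tomm40l* on the opposite strand over 74.9% of their length, had 0 to 2 in any library.

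In the NR2 subfamily both COUP-TF relatives that were well detected were higher. *Nr2f2* (chr7:70351946-70366746), COUP-TFII, is known in Leydig cells and their progenitors and had 100, 103 and 83 counts in the WT libraries and 196, 157 and 166 in KO (LFC 0.75, SE 0.14, adjusted p = 0.00160). *Nr2f6* (chr8:71374118-71381967), an orphan repressor, had 107, 82 and 66 counts in the WT libraries and 138, 148 and 140 in KO (LFC 0.64, SE 0.16, adjusted p = 0.00724). Neither overlapped between genotypes. The exons of *Nr2f6* are covered over 54.4% of their length by *Ocel1* on the opposite strand, which was lower in KO (LFC -0.31, adjusted p = 0.00442), and the strand setting of the counting is not given in the sources used here, so that reads of the pair cannot be told apart.

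The testicular orphan receptors TR2 and TR4, from *Nr2c1* and *Nr2c2*, are abundant in germ cells. *Nr2c1* was at 46.4 to 51.2 CPM in WT and 37.8 to 47.0 in KO, an LFC of -0.22 (SE 0.08) that missed the threshold (adjusted p = 0.0520). It passed in 5 of 14 alternatives, with an adjusted p of 0.0125 with the littermate block in edgeR (0.0562 with the block in DESeq2) and of 0.00216 (LFC -0.32) without KO1, whose value alone lay within the WT range. *Nr2c2* stood at 54.5 ± 4.91 and 55.2 ± 1.41 CPM (LFC 0.02, adjusted p = 0.830), and its coregulator *Nr2c2ap* at 0.743 ± 0.207 and 0.869 ± 0.0358 (LFC 0.22, adjusted p = 0.583). Their exons overlap *Mrps25* over 30.7% and *Rfxank* over 82.4% on the opposite strand. The eye and brain receptors *Nr2e1* and *Nr2e3* and the COUP-TFI gene *Nr2f1* had at most 4 counts in any library.

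Among the steroid receptors, *Esr1* (chr10:4611989-5005633), the estrogen receptor of Leydig cells and efferent ducts, had the largest LFC. It had 78, 81 and 71 counts in the WT libraries and 151, 150 and 171 in KO, with little spread within a genotype (LFC 0.93, SE 0.14, adjusted p = 3.91e-04). *Esr2* had 0 to 8 counts and *Pgr* 0 or 1, so that neither was tested. Of 8 tested genes of estrogen synthesis and response 5 were higher and 0 lower (median LFC 0.69), with *Hsd17b7* at 0.97 (SE 0.13) and *Igfbp4* at 0.83 (SE 0.11). *Cyp19a1*, the aromatase gene, stood at 5.23 CPM in WT and 4.33 in KO (adjusted p = 0.212).

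*Nr3c1*, the glucocorticoid receptor, had 231, 198 and 219 counts in the WT libraries and 315, 286 and 322 in KO. In CPM the genotypes were tightly apart, at 12.4 ± 0.207 and 16.4 ± 0.622 (LFC 0.40, SE 0.08, adjusted p = 0.00255), though DESeq2 with the littermate block gave an adjusted p of 0.0718. *Nr3c2*, the mineralocorticoid receptor, was at 5.08 ± 0.0675 and 4.56 ± 1.24 CPM, with KO2 above and KO1 and KO3 below every WT library (LFC -0.16, adjusted p = 0.522). Glucocorticoid-responsive genes counted 6 higher and 2 lower of 12 tested (median LFC 0.27), with *Ddit4* at 0.89 (SE 0.09) and *Fkbp5*, a cochaperone of the receptor, at 0.84 (SE 0.12). The lower genes were *Per1*, which also stands in the clock list, and *Mt1* (LFC -0.13). The lower count was 0 without WT1, WT2 or WT3 and with library size alone, and 1 without KO2 or KO3 and with the block in either tool, while the higher count was 3 with the block in DESeq2.

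The estrogen-related receptors are orphans that act on mitochondrial and pluripotency genes. *Esrrb* (chr12:86361117-86521628) had 106, 77 and 95 counts in the WT libraries and 127, 118 and 130 in KO. It was just past the threshold (LFC 0.33, SE 0.12, adjusted p = 0.0472) and passed in 3 of 14 alternatives; it did not with the block (adjusted p = 0.0628) or without any of WT1, WT2, WT3, KO1, KO2 and KO3 (adjusted p from 0.0581 to 0.149). *Esrra* was at 21.4 ± 1.51 and 19.3 ± 0.901 CPM (LFC -0.15, adjusted p = 0.153), and *Esrrg* at 0.891 ± 0.215 and 1.21 ± 0.474 (LFC 0.43, adjusted p = 0.341), both with overlapping values.

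The NR4A genes, which in many cells are switched on within minutes of a stimulus and need no ligand, were not called. *Nr4a1*, per kb among the most abundant receptor genes in WT, stood at 46.5 to 49.1 CPM there, and in KO at 36.4 in KO1, 52.9 in KO2 and 38.6 in KO3 (LFC -0.17, SE 0.12, adjusted p = 0.243). KO2 was above and the other KO libraries below every WT library. Without KO2, *Nr4a1* was lower (LFC -0.35, adjusted p = 0.00310). *Nr4a2* did not overlap between genotypes, at 0.633 to 0.902 CPM in WT and 0.996 to 1.11 in KO, but did not pass (LFC 0.49, adjusted p = 0.177), and *Nr4a3* was at 2.50 ± 0.628 and 2.21 ± 0.393 (LFC -0.18, adjusted p = 0.575). The other immediate early genes of the fixed list were 10 higher and 2 lower of 15 tested (median LFC 1.04), with *Fosl2* at 1.51 (SE 0.23), *Btg2* at 1.47 (SE 0.18), *Junb* at 1.23 (SE 0.17), *Klf6* at 1.04 (SE 0.13) and *Jun* at 0.81 (SE 0.11). *Egr2* is among the higher, with 3, 5 and 3 counts in the WT libraries and 18, 15 and 14 in KO. It could be tested only because it was high in KO, so its call and its part in the median are no support. The 2 lower calls became 0 without WT2, WT3 or KO2 and with library size alone, and 1 without WT1 or KO3.

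*Nr6a1* (chr2:38723369-38926461), germ cell nuclear factor, is a repressor known in spermatids and in the early embryo. It had 5330, 4608 and 4884 counts in the WT libraries and 4768, 4018 and 4303 in KO, that is 275 to 293 and 222 to 246 CPM. The decrease was small beside its level and clear of the spread (LFC -0.29, SE 0.05, adjusted p = 0.00129), and was -0.15 with library size alone (adjusted p = 0.0114). The remaining receptors were near the floor. *Nr5a2* had 4, 10 and 6 counts in the WT libraries and 1, 1 and 4 in KO and was not tested, and *Nr0b2*, the repressor SHP that bile acids induce through FXR in liver, had 2 to 8.

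The receptors that the pattern does not take were read beside them. Of 9 tested, 5 were higher in MLX KO and 0 lower (55.6% called, beside 45.4% of all genes, median LFC 0.36). *Nr5a1*, the steroidogenic factor, stood at 37.9 CPM in WT and 66.9 in KO (LFC 0.82, SE 0.14), *Rxra*, the common dimer partner of the PPAR, LXR, thyroid and vitamin D receptors, at 49.2 and 63.2 (0.36, SE 0.07), and *Rara* at 20.9 and 29.0 (0.47, SE 0.12). *Nr0b1* stood at 17.2 and 22.5 (0.39, SE 0.08). *Rxrb* (23.3 and 25.4), *Rxrg* (1.92 and 1.48), *Rarb* (1.05 and 1.12) and *Rarg* (4.47 and 4.98) did not pass, and *Hnf4a* (0.248 and 0.162) was not tested. Of 18 coactivators 4 were higher and 3 lower (median LFC 0.04). The higher count ran from 0 in DESeq2 with the block to 10 with library size alone, and was 2 without WT1 or KO2, 1 without WT2, WT3 or KO3, and 7 without KO1. Of 14 corepressors 1 was higher and 2 lower (median -0.01), but 2 were higher without WT2 or KO1, and 1 was lower without WT1, WT2, WT3, KO2 or KO3 and 0 with library size alone. *Ncoa6* (LFC -0.35, SE 0.05) had the lowest adjusted p of the coactivators, and *Tbl1x* (0.53, SE 0.13) that of the corepressors. *Ncor1*, a scaffold of receptor corepressor complexes, stood at 146 CPM in WT and 143 in KO. With the block in edgeR, 2 coactivators and 1 corepressor were lower.

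**Figure D3:**
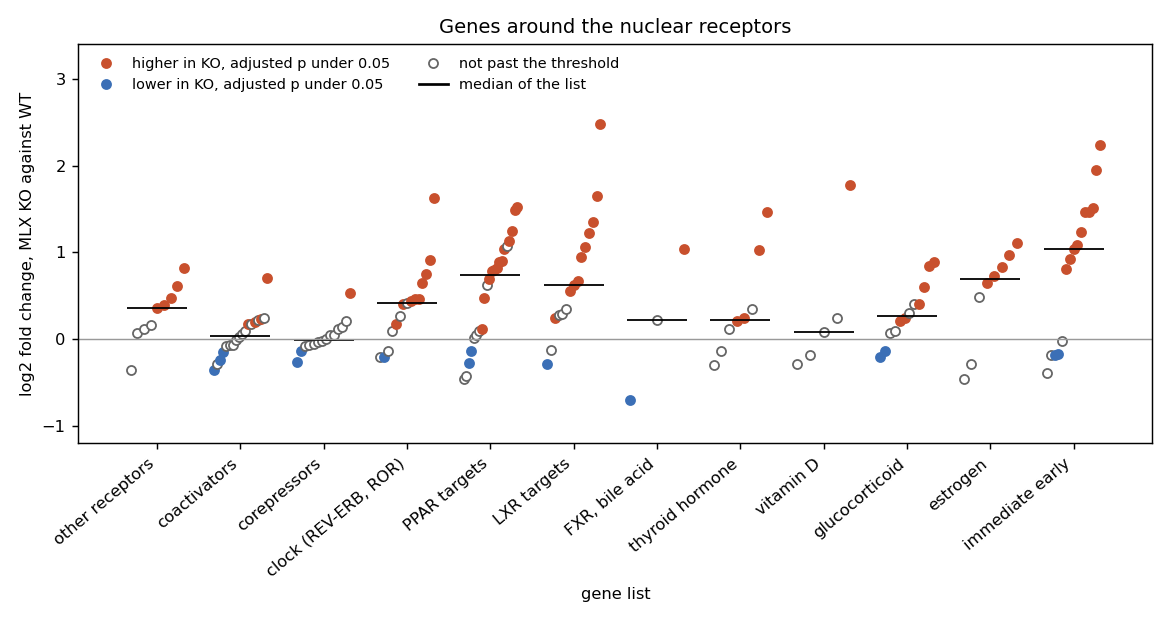
Log2 fold change of every tested gene in the lists around the nuclear receptors, each point 1 gene and each line the median of its list. Medians run from -0.01 for corepressors to 1.04 for immediate early genes, and *Apoc1* at 2.48 and *Fos* at 2.24 stand highest.

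The called genes held to different degrees over 14 alternative analyses. Of the 15, 10 passed in all 14, among them *Nr1h4*, *Thra*, *Thrb*, *Ppara*, *Vdr*, *Nr2f2*, *Nr2f6*, *Esr1* and *Nr6a1*. *Nr1h4* entered the analysis reported only through its KO counts, so its passing is no further support. The other 5 lost the call in at least 1: *Esrrb* and *Rora* in most, and *Nr1d2*, *Nr3c1* and *Ppard* only with DESeq2 and the littermate block, the analysis with the fewest calls of all genes.

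**Figure D4:**
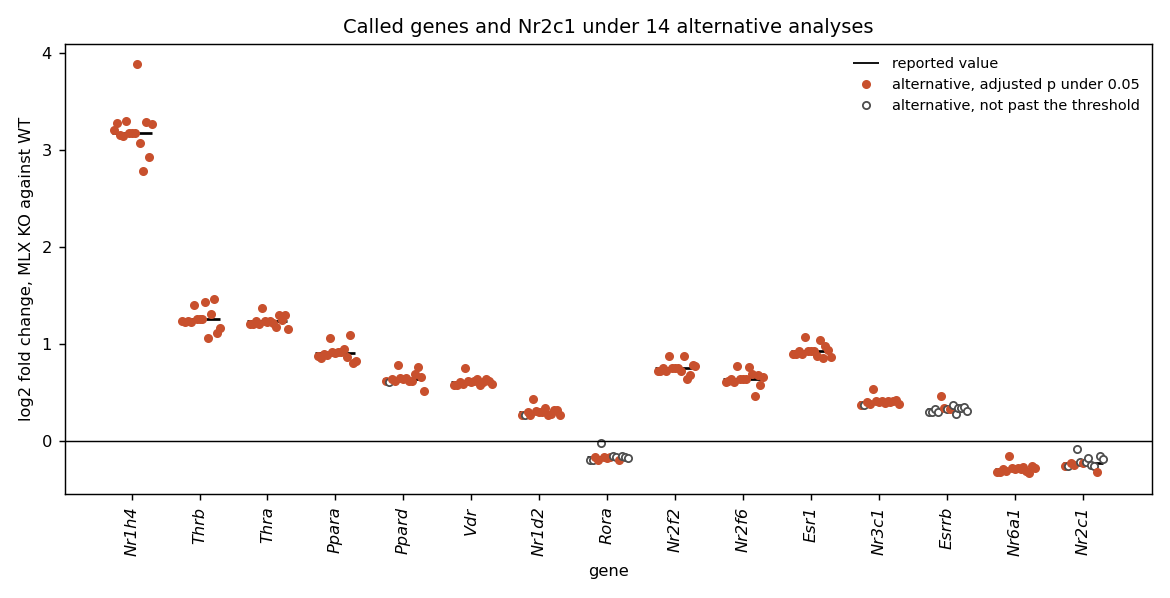
Log2 fold change of 14 called genes and *Nr2c1* in the analysis reported (line) and in 14 alternatives (points), filled where the adjusted p was under 0.05. Of the called genes drawn, 9 are filled throughout, *Esrrb* in 3 and *Rora* in 6 of 14, and none of them changes sign.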

How the data were processed

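RNA from whole testes was extracted with Trizol and sequenced as paired ends. The authors aligned reads to mm10 with TopHat and deposited counts: for each gene symbol, how many reads fell on it in a library, without normalization. The counting tool, its strand setting and the annotation are not given in the sources used here. The same table holds the authors' own comparison of the genotypes (mean signal, fold changes, errors, test scores and p-values), which was not used. The ChIP-seq samples are not analysed here. Of 17933 rows, 2 repeated another and were used once.

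The fit covered the whole table: edgeR 4.0.16 in R 4.3.3, filterByExpr at its minimum count of 10, TMM, a two-sided quasi-likelihood test on genotype alone, p-values adjusted by Benjamini-Hochberg over 14640 genes, and a threshold of 0.05. LFC is the log2 fold change of MLX KO against WT, with SE from the test statistic. CPM are divided by TMM-adjusted library sizes, and CPM per kb by exon length from GENCODE M21. Gene spans and start windows are RefSeq's, on GRCm38.p6, the assembly behind mm10. Libraries of a genotype differed by more than sampling noise (chi-square of 2.73 to 8.26 for each degree of freedom), so none is a duplicate. Exact binomial intervals at 95% cover counting error only.

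The sample titles call the replicates paired, and the methods describe littermates. Deviations from the group means correlated at 0.145, 0.0363 and 0.121 for libraries sharing a number and reached 0.033 at most for the rest. At number 2 the margin is too small to bear out the pair. The numbers were taken as pairs from the titles and methods, and the block is an alternative. DESeq2 1.42.0 was another. The code was tested on simulated data with known changes.

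The rule for named genes was every gene that the pattern finds, with called genes given in full, and of each list up to 6 genes with the lowest adjusted p, beside single genes of the lists chosen for their known role or to complete a small count, after their values were seen. Some of these genes are not reported here. The members and lists were chosen with earlier results of these data known, and p-values measure the spread between these animals.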

Additional observations from a re-analysis of the deposited data

How the results depend on the processing

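The 14 alternatives were DESeq2, the littermate number as a replicate block in edgeR and in DESeq2, upper-quartile factors, library size alone, size factors from DESeq2, no filter, a filter of 1 CPM in 3 libraries, and each library left out. Nuclear receptor genes called higher numbered 13 in the analysis reported and 9 to 13 in the alternatives, with 12 in the edgeR block, 9 in the DESeq2 block and 12 without any 1 library. Genes called lower numbered 2, but 1 in the DESeq2 block and with library size alone, 3 in the edgeR block, with size factors from DESeq2 and with no filter, and 1 to 2 without 1 library (1 without WT1, WT2 or KO3). Over all genes 3634 were higher and 3015 lower. The DESeq2 block gave 2193 higher and 2386 lower, library size alone 5343 higher and 1268 lower (80.8% of calls higher against 54.7%), and leaving out 1 library 2978 to 3990 higher and 2134 to 3405 lower. Library size alone raised the LFC of all genes by a median of 0.14. Signs changed in genes that were not called: *Nr1h2* was 0.12 with library size alone and ran from -0.07 to 0.06 as libraries were left out (above 0 without KO3 or WT3), *Nr2c2* was -0.01 with DESeq2, its block or its size factors and -0.06 to 0.06 as libraries were left out (below 0 without WT1), and likewise as libraries were left out *Nr1h5* ran from -0.34 to 0.00, *Nr3c2* from -0.38 to 0.01 and *Nr4a3* from -0.35 to 0.00 (highest without KO1, KO3 and WT2). The cause was not tested. The block in edgeR changed no other call of a nuclear receptor gene than those of *Esrrb* and *Nr2c1*. The 10 untested genes had 0 to 16 counts, and a difference there was not detectable at this depth.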
